A study of Mus musculus with 135 samples.

Results

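The Cyp2c genes encode cytochrome P450 enzymes of the endoplasmic reticulum, haem proteins that oxidise fatty acids, bile acids, retinoids, steroids and drugs and are most abundant in hepatocytes, the parenchymal cells of the liver. Several mouse members turn arachidonic acid into epoxyeicosatrienoic acids, which are lipid mediators, while Cyp2c70 acts on bile acids. The work described here concerns H3K4me3, histone H3 trimethylated at lysine 4 and found at active promoters, at 10 named Cyp2c genes: Cyp2c23, Cyp2c29, Cyp2c37, Cyp2c38, Cyp2c39, Cyp2c44, Cyp2c50, Cyp2c54, Cyp2c55 and Cyp2c70. A peak was assigned to a gene when it lay within 1 kb of a transcription start site (TSS) of that gene in the GENCODE M21 annotation. By this rule 6 of the 29138 hepatocyte peaks, and of the 187253 peaks listed for all 4 cell types of the series, belonged to the named genes. The name Cyp2c44 is absent from GENCODE M21 and is given by RefSeq as a synonym of Cyp2c23, so the 10 names stand for 9 genes.

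The study measured H3K4me3 in mice to find genetic loci that alter it. The hepatocyte samples used here came from females of 8 weeks and comprised the recombinant inbred lines BXD75 and BXD87 and the founder strains C57BL/6J (B6) and DBA/2J (D2), with 3 libraries each. A BXD line is a fixed inbred mosaic of the B6 and D2 genomes, and no group carried a further allele or treatment. All 12 libraries were made from MNase-digested chromatin with antibody lot 2746331. The labels do not say that the 3 libraries of a strain came from separate animals, so p-values measure only the spread between these libraries, which may be technical. Some levels in stem cells and germ cells are also given below. The stem cell samples are labelled with an embryonic day and the germ cell samples with an age in days post partum. Neither therefore matches the hepatocytes in age. The germ cell samples also include a strain labelled F1.

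Library depth, counted as reads within listed peaks, was 8.95 to 25.2 mega-reads. Of 8 hepatocyte marker genes 7 had a promoter peak, their summed level being 1210 to 1663 CPM in BXD75, 1478 to 1582 CPM in BXD87, 1715 to 1942 CPM in B6 and 1531 to 2179 CPM in D2 (CPM, counts scaled to an equal library size). None of 5 Kupffer cell markers had a listed promoter peak. Of 5 liver endothelium markers 3 had one, and their summed level was 14.7 to 17.8 CPM in BXD75, 16.9 to 20.5 CPM in BXD87, 27.0 to 31.3 CPM in B6 and 40.9 to 97.1 CPM in D2. Promoter peaks took 73.3% to 76.3% of the reads in peaks of the line libraries and 80.1% to 81.6% of those of the founder libraries. In bulk chromatin, fewer cells that carry the mark and less of it per cell cannot be told apart.

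Of the 9 Cyp2c genes 6 had a promoter peak in hepatocytes: Cyp2c23, Cyp2c29, Cyp2c38, Cyp2c39, Cyp2c55 and Cyp2c70. All 6 peaks covered a start site of their gene and belonged to the class found on both genomes, the mm10 reference and a second genome (build not given in the sources used). This class carries the prefix LNK in the authors' peak names, while REF marks a peak found on the reference alone and ALT one found on the second genome alone. No Cyp2c gene had a promoter peak in cardiomyocytes, embryonic stem cells or male germ cells (0 of 9 in each), where 58.6%, 66.7% and 68.8% of the 21911 protein-coding genes had one. In hepatocytes that share was 55.9%.

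The promoter sequences are shown because these genes arose by local duplication, so that the start sites can be compared base by base. RefSeq (GRCm38.p6, the assembly that mm10 names) gave an entry for 7 of the 9 genes; Cyp2c23 and Cyp2c54 are named only. Each line holds the 150 bases before the RefSeq start, written 5′ to 3′ on the strand of the gene. Capitals mark CAAAGTC, the core of an element bound by the liver receptor HNF4A, and TATAAA, the TATA box, each searched on both strands (GACTTTG and TTTATA on the other strand). The windows lie at chr19:39286935-39287084 (plus strand) for Cyp2c29, chr19:39463076-39463225 (minus) for Cyp2c38, chr19:39510672-39510821 (plus) for Cyp2c39, chr19:39006869-39007018 (plus) for Cyp2c55, chr19:40187287-40187436 (minus) for Cyp2c70, chr19:39992274-39992423 (plus) for Cyp2c37 and chr19:40089529-40089678 (plus) for Cyp2c50.
Cyp2c29: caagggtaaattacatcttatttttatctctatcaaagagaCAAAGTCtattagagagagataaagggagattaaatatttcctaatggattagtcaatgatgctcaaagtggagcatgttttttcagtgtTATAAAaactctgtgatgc
Cyp2c38: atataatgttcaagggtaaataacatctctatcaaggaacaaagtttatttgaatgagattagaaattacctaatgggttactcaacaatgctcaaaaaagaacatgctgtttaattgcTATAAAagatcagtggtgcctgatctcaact
Cyp2c39: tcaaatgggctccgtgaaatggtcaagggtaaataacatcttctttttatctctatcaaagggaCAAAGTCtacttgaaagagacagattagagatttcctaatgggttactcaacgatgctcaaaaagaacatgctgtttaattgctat
Cyp2c55: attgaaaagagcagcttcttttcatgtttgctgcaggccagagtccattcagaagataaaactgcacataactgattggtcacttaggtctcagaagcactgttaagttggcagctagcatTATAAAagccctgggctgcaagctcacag
Cyp2c70: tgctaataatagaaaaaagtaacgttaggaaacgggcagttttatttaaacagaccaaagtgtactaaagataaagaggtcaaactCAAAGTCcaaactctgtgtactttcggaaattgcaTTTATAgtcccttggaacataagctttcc
Cyp2c37: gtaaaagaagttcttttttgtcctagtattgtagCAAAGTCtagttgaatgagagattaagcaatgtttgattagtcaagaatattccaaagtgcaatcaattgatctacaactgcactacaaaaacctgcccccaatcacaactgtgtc
Cyp2c50: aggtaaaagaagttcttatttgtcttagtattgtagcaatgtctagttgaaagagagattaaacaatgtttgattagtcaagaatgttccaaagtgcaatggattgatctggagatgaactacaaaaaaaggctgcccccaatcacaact
CAAAGTC was found in 4 of these 7 windows, in Cyp2c29, Cyp2c37, Cyp2c39 and Cyp2c70, and in 2.25% of all 32851 RefSeq promoter windows of the same length. TATAAA was found in 4 of the 7, in Cyp2c29, Cyp2c38, Cyp2c55 and, on the opposite strand, Cyp2c70, and in 7.57% of all windows. The matches did not overlap each other. A match describes the letters and says nothing of binding. The CAAAGTC match began 109 bases before the start in Cyp2c29, 116 in Cyp2c37, 86 in Cyp2c39 and 64 in Cyp2c70, and the TATAAA match began 19 to 31 bases before it. The 7 windows held 0 to 3 CpG sites and 31.3% to 44.0% GC, against medians of 4.0 sites and 54.0% GC over all windows. Aligned end to end, Cyp2c37 and Cyp2c50 were 84.5% identical, Cyp2c29 and Cyp2c39 64.2% and Cyp2c38 and Cyp2c39 62.6%, while the median over the 21 pairs was 53.8%. The Cyp2c39 values depended on the start used, since the GENCODE start (39510862) lies 40 bases past the RefSeq start (39510822). The 150 bases before the GENCODE start held both motifs, CAAAGTC from 126 and TATAAA from 43 bases before it, and were 61.5% identical with Cyp2c29 and 71.9% with Cyp2c38. RefSeq lists a further Cyp2c39 start at position 39347346, where no hepatocyte peak was listed, and its window was 69.3% identical with Cyp2c29 and 76.6% with Cyp2c38.

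Near-identical copies could in principle share reads, so the uniqueness of the start sites was measured on GRCm38.p6. Of all words of 50 bases within 1 kb of the TSS, the share that also occurred elsewhere on chromosome 19 was 1.1% for Cyp2c29, 0.7% for Cyp2c38, 3.0% for Cyp2c39, 3.2% for Cyp2c70, 2.7% for Cyp2c23 and 14.8% for Cyp2c55. For the genes without a promoter peak it was 11.2% for Cyp2c37, 13.7% for Cyp2c50 and 9.5% for Cyp2c54. Only exact matches were counted. The rest of each peak, other chromosomes and the second genome were not searched, so these shares do not show that whole peaks are unique.

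Except for Cyp2c23, the genes lie in a cluster of 1.18 Mb between the start sites of Cyp2c55 and Cyp2c70 on chromosome 19. The widest peak was that of Cyp2c29, an epoxygenase of arachidonic acid, which ran over 20837 bases on mm10 (39282087 to 39302924), into the body of the gene and past the 99.2nd percentile of promoter peak widths. Cyp2c39, a P450 described as a retinoic acid hydroxylase, had a peak at 39506300 to 39516529, and Cyp2c38, another arachidonic acid oxygenase, at 39458048 to 39464789. The peak of Cyp2c55, which makes hydroxylated arachidonic acid, was the narrowest at 39004174 to 39007636, and also covered the start of Gm23800. Cyp2c70, which makes the muricholic acids of mouse bile, had a peak at 40179119 to 40189037. Cyp2c23, an epoxygenase outside the cluster, had one at 44018877 to 44030802.

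The second genome gave much the same widths at Cyp2c23, Cyp2c29, Cyp2c38 and Cyp2c70, with ratios to the mm10 width between 0.975 and 1.08. The Cyp2c39 peak spanned 19907 bases on the second genome and 10229 on mm10, a ratio of 1.95 that exceeded 99.8% of the ratios of peaks found on both genomes. The Cyp2c55 peak spanned 4646 and 3462 bases, a ratio of 1.34.

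**Figure D1:**
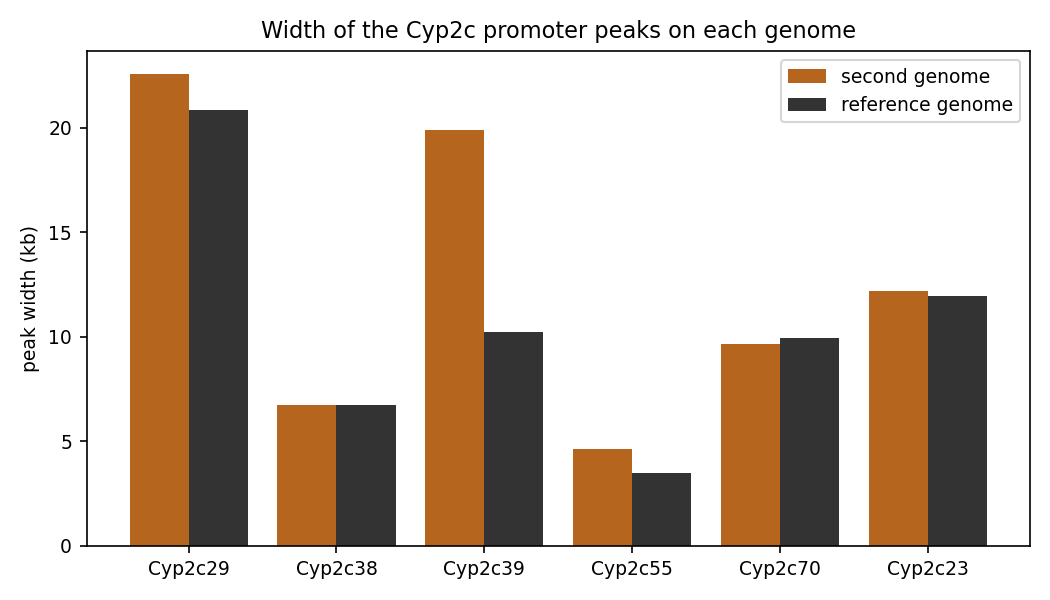
Width in kb of the 6 Cyp2c promoter peaks on the second genome (brown) and on the mm10 reference (black), as listed by the authors, 1 value per peak. The Cyp2c39 peak is 1.95 times as wide on the second genome, and the Cyp2c55 peak 1.34 times.

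Levels differed widely between the 6 genes, and their order differed between the strains and, for Cyp2c39 in D2, with the width used. Per kb of mm10 peak width, Cyp2c39 stood last of the 6 in B6 hepatocytes, at 3.68 ± 0.17 CPM per kb, and first in D2, at 23.5 ± 1.4 CPM per kb (SD, n = 3 each). Cyp2c23 was in the middle of the order in B6, at 11.8 ± 1.2 CPM per kb, and last in D2, at 4.95 ± 0.18. In B6 Cyp2c29 led by mean at 15.7 ± 0.6 CPM per kb, and no library of it overlapped with Cyp2c70, the next, at 14.1 ± 1.1. Cyp2c38 libraries, from 11.5 to 17.3 CPM per kb, did overlap with those of Cyp2c29, from 15.1 to 16.4. Cyp2c70, Cyp2c38 (13.7 ± 3.1) and Cyp2c23 overlapped from one to the next in B6, and Cyp2c23 did not overlap with Cyp2c55, which followed it. In D2 Cyp2c38 came next after Cyp2c39, at 20.4 ± 1.4 CPM per kb, and no library of the pair overlapped, while Cyp2c29 at 16.8 ± 2.3 and Cyp2c70 at 15.6 ± 1.8 did. Per kb of width on the second genome, the mean of Cyp2c39 in D2 was 12.1 CPM per kb, below Cyp2c38 (20.4), Cyp2c70 (16.0) and Cyp2c29 (15.5), so its first place in D2 held for the mm10 width alone. On the mm10 width both lines had the same order, Cyp2c39, Cyp2c38, Cyp2c70, Cyp2c29, Cyp2c55 and Cyp2c23, in which the first 4 overlapped from one to the next.

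The founders were compared to find which promoters differ between B6 and D2. The Cyp2c39 peak had 39.6, 37.2 and 36.1 CPM in B6, against 250, 247 and 225 CPM in D2. All B6 libraries lay far below all D2 libraries, and this was the largest difference among the 6 genes. The log2 difference, B6 minus D2, was -2.68 (SE 0.18), a 6.40-fold higher level in D2, with an edgeR adjusted p of 5.4e-08. With each founder's mean divided by the peak width on its own genome, the log2 ratio was -1.72 against -2.68 without that step. The sources used do not give which reads were counted over which interval.

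Cyp2c23 went the other way. Its peak had 157, 131 and 135 CPM in B6, against 56.7, 60.6 and 59.9 CPM in D2. All B6 libraries were above all D2 libraries, by a log2 difference of 1.25 (SE 0.13), or 2.39-fold, with an edgeR adjusted p of 1.7e-06. Cyp2c55 had 19.9, 19.8 and 20.4 CPM in B6, against 29.3, 35.7 and 28.6 CPM in D2. Its log2 difference of -0.64 (SE 0.17) passed with an edgeR adjusted p of 0.0134, but not without D2 replicate 2, the highest of its libraries, where the adjusted p was 0.0831. Divided by the width on each genome, the log2 ratio of the Cyp2c55 means was -0.22.

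Cyp2c38 had 116, 82.5 and 77.4 CPM in B6, against 146, 138 and 128 CPM in D2. The B6 libraries lay below the D2 libraries, but 1 of the 3, replicate 1, stood well above the others, and the log2 difference of -0.58 (SE 0.20) did not pass, with an edgeR adjusted p of 0.0693. Without that library it was -0.78, with an adjusted p of 0.0098. The adjusted p was 0.0232 with DESeq2, 0.0158 with only both founders in the fit, and 5.3e-04 with replicate number as a block. Cyp2c29 had 341, 324 and 315 CPM in B6, against 393, 360 and 298 CPM in D2, with a log2 difference of -0.10 (SE 0.12). Cyp2c70 had 128, 141 and 150 CPM in B6, against 172, 157 and 136 CPM in D2, with a log2 difference of -0.15 (SE 0.10). The founder libraries overlapped at both genes, and the edgeR adjusted p was 0.738 for Cyp2c29 and 0.419 for Cyp2c70.

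In all, 3 of the 6 peaks were called between the founders, 1 higher and 2 lower in B6. Over all 29137 peaks tested 15.8% were called, 7.36% higher and 8.41% lower in B6, and over promoter peaks alone 9.22%. The libraries of the founders did not overlap at 4 of the 6 peaks, against 30.7% of all peaks. The median log2 difference was -0.37 over the 6 peaks and 0.01 over all peaks. Marker levels moved with these groups in part. D2 replicate 3 was the lowest D2 library at 5 of the 6 peaks and also had the lowest hepatocyte marker sum of that strain, 1531 CPM, against 2175 and 2179 CPM in the others. The endothelial sum was lower in B6 than in D2. Of its 3 markers this was so of Stab2, a scavenger receptor of liver sinusoids whose ALT peak had 10.2 ± 2.1 CPM in B6 and 54.5 ± 21.3 CPM in D2 (SD, n = 3 each), while Kdr had 12.5 CPM in B6 and 12.3 CPM in D2 and Clec4g 6.21 CPM in B6 and 5.56 CPM in D2. The part of these markers in the Cyp2c differences was not tested.

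**Figure D2:**
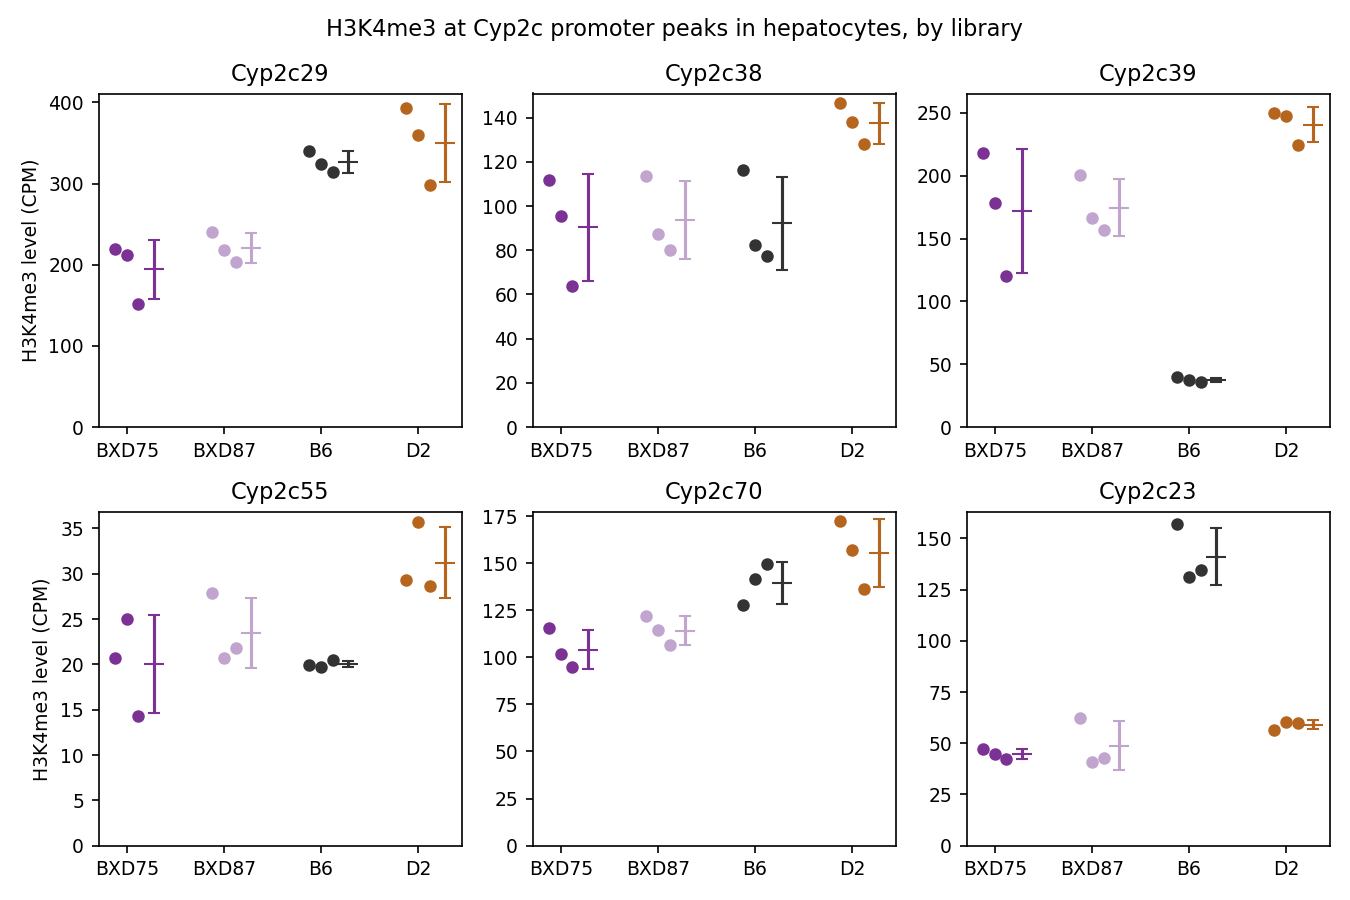
H3K4me3 level in CPM at each of the 6 Cyp2c promoter peaks in hepatocytes of BXD75, BXD87, B6 and D2; points are libraries, and the bar beside them is the mean ± SD (n = 3 each). Cyp2c39 is at 36.1 to 39.6 CPM in B6 and 225 to 250 CPM in D2, while Cyp2c23 is at 131 to 157 CPM in B6 and 56.7 to 60.6 CPM in D2.

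The lines BXD75 and BXD87 were compared to ask where these mosaics of the same founders differ from each other. None of the 6 peaks was called (0 of 6, against 4.89% of all peaks), none had an unadjusted p under 0.05, and DESeq2 called 0 as well. Cyp2c39 had 218, 179 and 120 CPM in BXD75, against 200, 166 and 157 CPM in BXD87, and its log2 difference was -0.02 (SE 0.16). Cyp2c23 had 47.3, 44.6 and 42.5 CPM in BXD75, against 62.5, 41.0 and 42.7 CPM in BXD87, with a log2 difference of -0.12 (SE 0.13). The libraries of the lines overlapped at all 6 peaks, where 17.4% of all peaks had lines that did not overlap. The other 4 differences lay between -0.24 (Cyp2c55, SE 0.17) and -0.05 (Cyp2c38, SE 0.20), with edgeR adjusted p-values of 0.706 or more over the 6. BXD75 replicate 3 was the lowest BXD75 library at 6 of the 6 peaks and had the lowest hepatocyte marker sum of its strain, 1210 CPM against 1315 and 1663 CPM. BXD87 replicate 1 was the highest BXD87 library at 6 of the 6, with a marker sum of 1582 CPM against 1478 and 1572 CPM. The part of these libraries in the comparison was not tested.

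**Figure D3:**
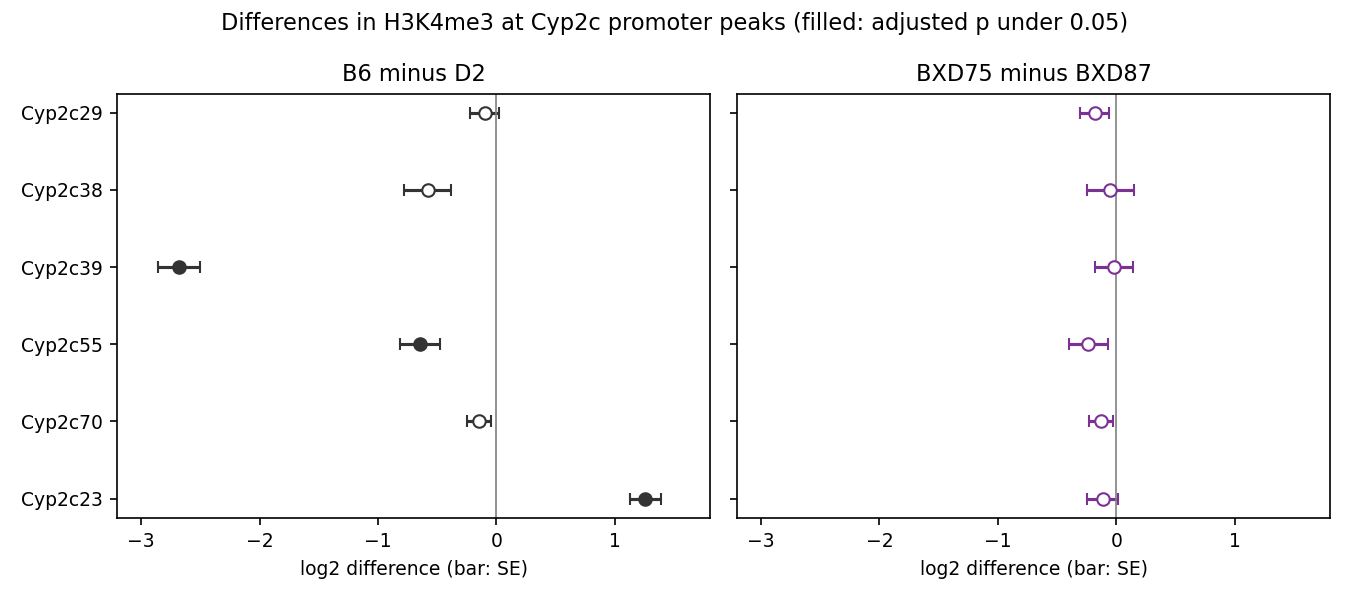
Log2 difference in H3K4me3, with its SE as a bar, at the 6 Cyp2c promoter peaks for B6 minus D2 (left) and BXD75 minus BXD87 (right); filled points had an edgeR adjusted p under 0.05. Cyp2c39 at -2.68 and Cyp2c23 at 1.25 lie on opposite sides of 0 between the founders, and the line differences all lie between -0.24 and -0.02.

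Each line was then set against each founder. These contrasts share libraries and are given side by side. The lines stood apart from the founders over the whole table, with medians of 0.10 to 0.14 on the log2 scale over all peaks and -0.28 to -0.23 over promoter peaks, so the changes below are read beside those medians. Cyp2c39 was higher than B6 by a log2 of 2.19 (SE 0.17) in BXD75 and 2.2 (SE 0.17) in BXD87, and lower than D2 at -0.48 (SE 0.16) and -0.46 (SE 0.16). Its libraries in both lines, from 120 to 218 CPM, lay between the 36.1 to 39.6 CPM of B6 and the 225 to 250 CPM of D2. Cyp2c23 was lower than B6 in both lines, at -1.65 (SE 0.13) in BXD75 and -1.53 (SE 0.13) in BXD87. Against D2 it stood at -0.40 (SE 0.13, edgeR adjusted p 0.0166) in BXD75 and at -0.28 (SE 0.13, edgeR adjusted p 0.0745) in BXD87.

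Cyp2c29 was lower in the lines than in either founder. It had 219, 212 and 152 CPM in BXD75 and 241, 218 and 204 CPM in BXD87, against 315 to 341 CPM in B6 and 298 to 393 CPM in D2. The log2 differences were -0.75 from B6 and -0.85 from D2 in BXD75, and -0.57 from B6 and -0.67 from D2 in BXD87 (SE 0.12 each). Cyp2c70 likewise had 115, 102 and 94.8 CPM in BXD75 and 122, 114 and 106 CPM in BXD87, against 128 to 150 CPM in B6 and 136 to 172 CPM in D2. Such a drop was not particular to these genes. The epoxygenase gene Cyp2j5 had means of 151 CPM in BXD75 and 152 CPM in BXD87, against 235 CPM in B6 and 247 CPM in D2. By mean Cyp2j6, Por and Ephx2 were also below both founders in both lines, while Cyp2j9, Cyb5a, Cyb5r3 and Ephx1 were not. Cyp2c38 had 112, 95.4 and 63.9 CPM in BXD75 and 114, 87.2 and 80.3 CPM in BXD87, overlapping with B6 and below D2. Cyp2c55 had 20.7, 25.0 and 14.3 CPM in BXD75 and 27.9, 20.8 and 21.8 CPM in BXD87, and all 6 of these libraries lay below the lowest D2 library, at 28.6 CPM.

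Counted by contrast, BXD75 minus B6 called 4 of the 6 peaks (1 higher, 3 lower), where 57.5% of all peaks were called, 31.8% higher and 25.8% lower, and BXD87 minus B6 also 4 (1 higher, 3 lower), against 55.4% of all peaks, 29.8% higher and 25.6% lower. BXD75 minus D2 called 6, all lower (61.9% of all peaks in either direction, 27.1% lower), and BXD87 minus D2 called 5, all lower (59% and 26.7% of all peaks). Over promoter peaks alone, in either direction, 65.9% (BXD75) and 64.5% (BXD87) were called against B6, and 66.8% and 64.5% against D2. The median log2 difference from D2 over promoter peaks was -0.26 in BXD75 and -0.23 in BXD87. The share of promoter peaks called lower was not computed. The split over all peaks depended on the scaling. With DESeq2, 6983 peaks were higher and 8446 lower for BXD75 minus B6, against 9255 and 7504 as reported, and 6731 were higher and 8149 lower for BXD87 minus B6, against 8685 and 7470. Against D2, DESeq2 gave 7852 higher and 8944 lower in BXD75, and 7513 higher and 8537 lower in BXD87. The count of 5 for BXD87 minus D2 was 2 without D2 replicate 1, D2 replicate 2, BXD87 replicate 2 or BXD87 replicate 3. The share of reads in promoter peaks was lower in the line libraries than in the founder libraries, as given above, and moved with this gap. So did the hepatocyte marker sum, at 1210 to 1663 CPM in BXD75 and 1478 to 1582 CPM in BXD87. It was 1715 to 1942 CPM in B6 and 1531 to 2179 CPM in D2. The endothelial sum was below both founders in every line library. By mean this held for Stab2 (1.9 CPM in BXD75, 3.8 CPM in BXD87) and Clec4g (2.8 CPM in both). Kdr, at 11.4 CPM in BXD75 and 11.96 CPM in BXD87, stood close to both founders. All 3 are ALT peaks. The blood marker Ptprc was also lower by mean in both lines. The bile duct markers Epcam and Sox9 and the stellate cell marker Lrat were higher by mean. Reln, also of stellate cells, was above B6 in both lines but above D2 in BXD87 alone. The part of the promoter share and of these markers in the gap was not tested.

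**Figure D4:**
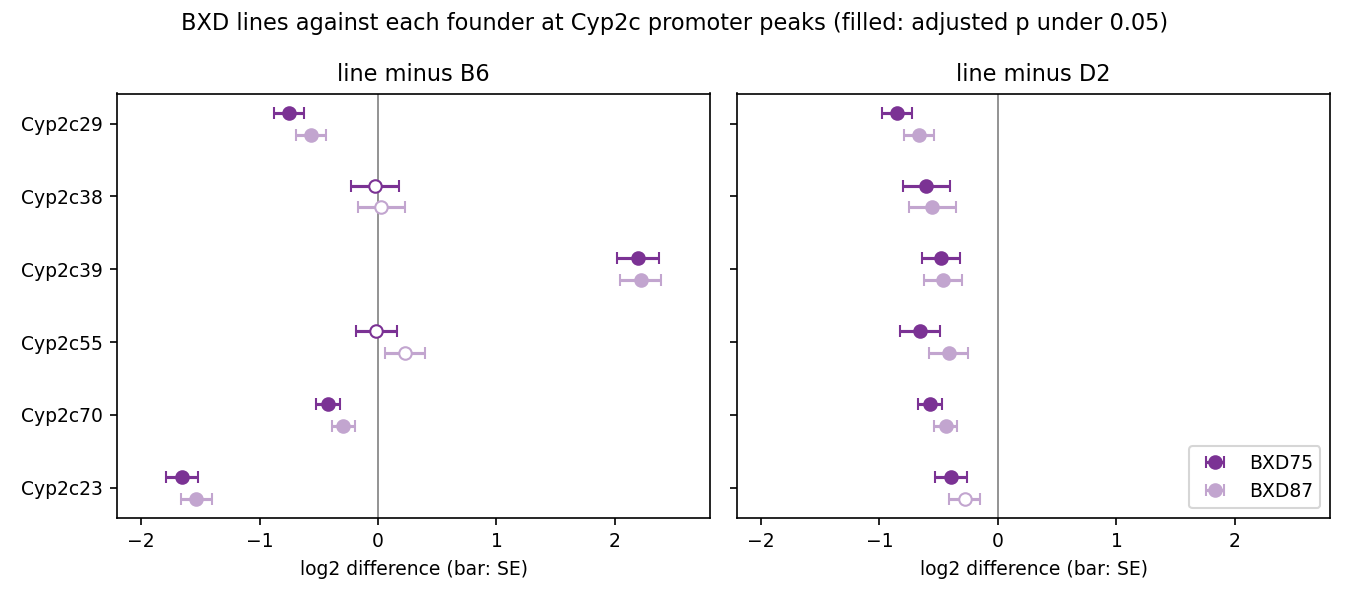
Log2 difference in H3K4me3, with its SE as a bar, between each line and B6 (left) or D2 (right) at the 6 Cyp2c promoter peaks; dark points are BXD75, pale points BXD87, and filled points had an edgeR adjusted p under 0.05. Cyp2c39 stands at 2.19 and 2.2 against B6 and at -0.48 and -0.46 against D2, and Cyp2c23 at -1.65 and -1.53 against B6.

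Genotypes of the lines were not used. As a description of the surroundings, peaks found on both genomes and called between the founders were followed within 2 Mb, with the 6 Cyp2c peaks left out. Around the cluster there were 15 such peaks among 97 tested, and BXD75 stood nearer to D2 than to B6 at 11 of them and BXD87 at 9. Around Cyp2c23 there were 8 among 68, and both lines stood nearer to D2 at 5. Over all chromosomes BXD75 stood nearer to D2 at 46.9% and BXD87 at 48.0% of 2593 such peaks.

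No listed promoter peak was found in hepatocytes at 3 of the 9 genes, Cyp2c37, Cyp2c50 and Cyp2c54, which in mouse encode further arachidonic acid oxygenases. The nearest listed peak was 52397 bases from the Cyp2c37 start. For Cyp2c50 it was a REF peak within the gene (40096437 to 40097934), 6741 bases from the start. That peak had 59, 58 and 109 reads in B6 and 0 reads in all 3 D2 libraries, where a limit of 3 reads allows 0.217 to 0.328 CPM. Its mean of 6.88 ± 0.94 CPM in B6 was at least 20.96-fold above that limit, by read counts alone. Whether D2 reads could be counted at this REF peak was not tested, so the fold is not a measured difference in the mark. It also had 69, 38 and 29 reads in BXD75 and 71, 41 and 61 reads in BXD87. Within Cyp2c54 lay a narrow ALT peak (40044821 to 40044894) with 0 reads in all 3 B6 libraries and 14, 25 and 41 reads in D2. It had 22, 15 and 18 reads in BXD75 and 20, 24 and 45 reads in BXD87. So both lines had reads at a peak that was empty in D2 and at one that was empty in B6.

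The same was seen over the whole table, at the few peaks of this kind. Of 3710 ALT peaks 17 had 0 reads in every B6 library and reads in every D2 library, and 17 of these 17 had reads in all 6 line libraries. Of 1814 REF peaks 16 were empty in D2 in the same sense, and 15 of these 16 had reads in all 6 line libraries. The sources used do not give how reads of the lines were assigned to the genomes, and its part in the line levels was not tested. A second ALT peak in Cyp2c54 (40056982 to 40060104), 13723 bases from the start, had 10.03 ± 3.2 CPM in B6 and 10.8 ± 1.2 CPM in D2. The authors' running peak numbers on the reference skip from 26014, at Cyp2c39, to 26024, at the REF peak in Cyp2c50, so 9 numbers carry no row in the list used here. It is 1 of 2 gaps of 9 numbers or more among 25428 named peaks. A missing row therefore does not show that the mark was absent at Cyp2c37, Cyp2c50 or Cyp2c54.

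Along the cluster as a whole 17 hepatocyte peaks were listed, 7 LNK, 9 ALT and 1 REF, and 9 of the 17 were called between the founders, 8 lower and 1 higher in B6, where 15.8% of all peaks were called. All 3 class names rest on where a peak was found, and the share called over the whole table differed between them, at 11% of LNK, 29.1% of ALT and 50.7% of REF peaks. In the cluster 3 of the 7 LNK peaks were called, all lower in B6, 5 of the 9 ALT peaks, all lower in B6, and the REF peak, higher in B6. Being found on a single genome bears on the direction of a peak too. The directions of the ALT and REF peaks are therefore not read as a founder difference of the cluster. Besides Cyp2c39 and Cyp2c55 the LNK peaks called held the peak at the pseudogene Cyp2c53-ps (39227478 to 39230447), with 8.48 ± 1.4 CPM in B6 and 27.3 ± 10.3 CPM in D2 and a log2 difference of -1.71 (edgeR adjusted p 0.0028).

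**Figure D5:**
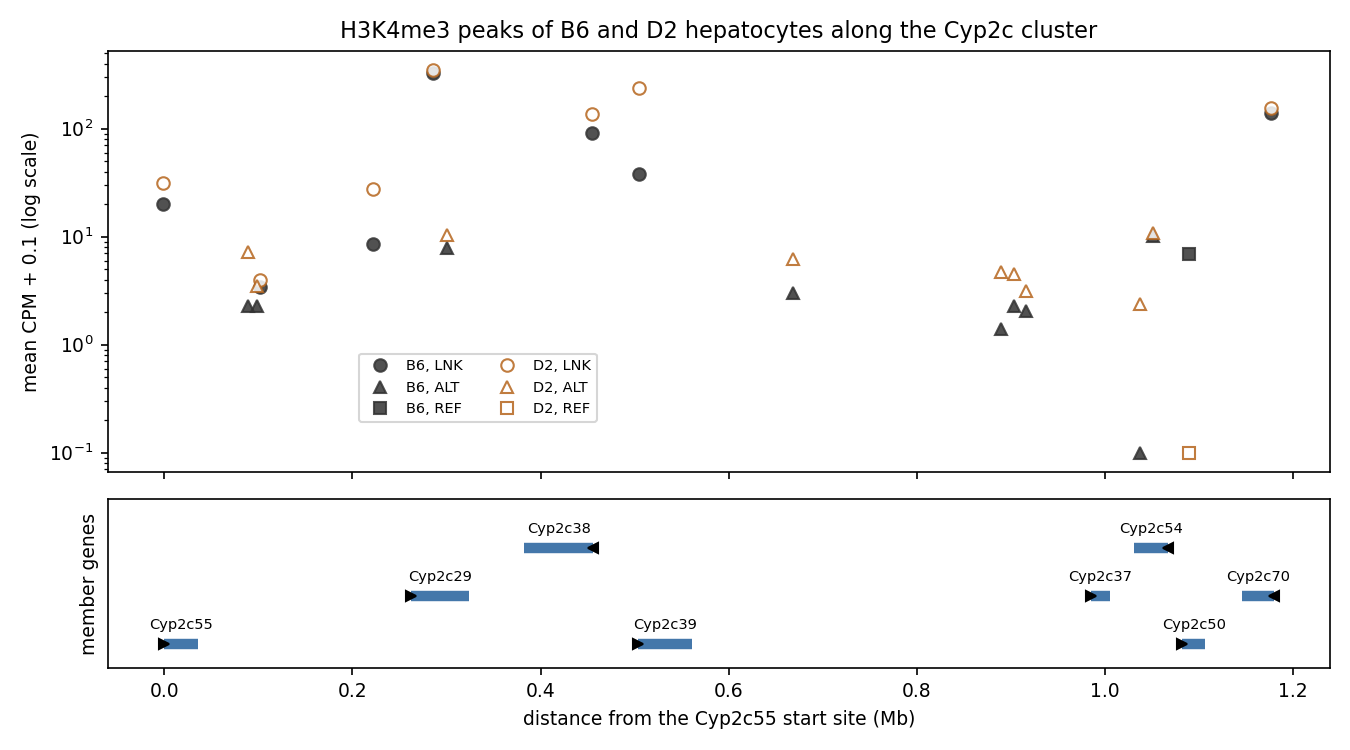
Mean H3K4me3 level in B6 (filled) and D2 (open) hepatocytes at the 17 peaks of the Cyp2c cluster, as CPM + 0.1 on a log scale, against distance in Mb from the Cyp2c55 start; circles, triangles and squares are LNK, ALT and REF peaks, and the lower panel gives the genes with arrowheads at their starts. The gap between the founders is widest among the high peaks at Cyp2c39, and the REF peak in Cyp2c50 has no D2 read.

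Outside hepatocytes only Cyp2c23 and Cyp2c70 had a listed peak inside the gene, away from the start. In stem cells a Cyp2c23 peak (44026876 to 44027942) lay 1257 bases from the start, just outside the 1 kb rule. It had 4.35 to 5.40 CPM with a median of 4.68 in 5 BXD75 lines, and 1.48 to 2.46 CPM with a median of 1.59 in 5 BXD87 lines. In the founders it had 3.46 to 3.82 CPM in 3 B6 lines and 2.51 to 4.06 CPM in 3 D2 lines. The BXD75 lines thus lay above the BXD87 lines, while the founders overlapped, and no test was run. The share of all stem cell peaks with such a gap was not computed, so these levels are a description only. The peak was also weak, with 72 to 91 reads in BXD75 lines and 24 to 46 in BXD87 lines. Its levels lay below 6.66 CPM, the median over all stem cell peaks. A second peak near the far end of Cyp2c23 was listed in stem cells (44006459 to 44008539) and in germ cells (44006600 to 44008508). In germ cells it had 11.96 to 15.2 CPM in 4 F1 libraries, 11.6 to 15.2 CPM in B6, 10.8 to 15.4 CPM in D2 and 7.84 to 22.9 CPM over 69 libraries of BXD lines. The germ cell libraries of F1, B6 and D2 shared the same antibody lot, while those of the BXD lines mixed that lot with another. The part of the lot in the wider range of the BXD lines was not tested. Stem and germ cell levels are scaled within their own tables and are not set against hepatocytes.

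Genes of related function were followed from a list. None of 6 other Cyp2c genes (Cyp2c40, Cyp2c65, Cyp2c66, Cyp2c67, Cyp2c68 and Cyp2c69) had a listed promoter peak in hepatocytes. Here too a missing row does not show that the mark was absent. Skipped peak numbers in the cluster lay past the Cyp2c39 peak on the reference and past the Cyp2c29 peak on the second genome. Cyp2c66 lies before both, so no skipped number falls at it. Among 10 other epoxygenases, epoxide hydrolases and redox partners 8 had one, and 1 was called between the founders. That was Ephx2, the soluble epoxide hydrolase that degrades epoxyeicosatrienoic acids, with 142 ± 13.1 CPM in B6 and 104 ± 8.8 CPM in D2 (SD, n = 3 each; log2 difference 0.45, edgeR adjusted p 0.0015). Por, which passes electrons to all microsomal P450 enzymes, had 155 CPM in B6 and 133 CPM in D2 and was not called. Cyp2j9 was the only one of the 8 called between the lines, with 11.8 CPM in BXD75 and 3.88 CPM in BXD87 (log2 difference 1.60, edgeR adjusted p 0.0308). The median log2 difference of the 8, B6 minus D2, was 0.12.

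Of 14 known transcriptional regulators of Cyp2c genes 13 had a promoter peak, and 1 was called between the founders, against 9.22% of all promoter peaks. Ppara, the fatty acid receptor, had 389 CPM in B6 and 282 CPM in D2 (log2 difference 0.47, edgeR adjusted p 0.0011). Hnf4a, which encodes HNF4A, had 362 CPM in both founders, and Nr1i2, the xenobiotic receptor PXR, had 324 CPM in B6 and 303 CPM in D2, neither called. None of the 13 was called between the lines, against 2.33% of all promoter peaks. The 6 genes of growth hormone signalling and sex-biased liver regulation (Ghr, Jak2, Stat5a, Stat5b, Bcl6 and Cux2) all had a promoter peak and none was called in either comparison. Of 7 pericentral hepatocyte markers 1 was called between the founders, Lgr5, at 91.7 CPM in B6 and 62.1 CPM in D2, and of 6 periportal markers 0 were. In lists this short, such counts are not a result about the list as a whole.

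The promoter peaks most like that of Cyp2c39 were sought over the 12 hepatocyte libraries by Pearson's r of log2 levels among 12610 promoter peaks. The 5 with the highest r were AC132251.1 (0.992), Gon4l with 1500004A13Rik (0.975), Fam213b (0.974), Gm4290 (0.973) and Cyp2d9 with Gm49419 and Gm27622 (0.973). The Gon4l and Gm4290 peaks are ALT peaks, so their low levels in B6 are not read as a founder difference. The others are LNK peaks. The 3 B6 libraries formed a low set apart from the other 9 in Cyp2c39, so that r mostly follows that split, and the libraries of a strain share their genotype. AC132251.1 lies on chromosome 19 (43916044 to 43920570), close to Cyp2c23, and had 16.0 ± 1.3 CPM in B6 and 42.4 ± 2.2 CPM in D2. Cyp2d9, another P450 gene, lies on chromosome 15 (82449815 to 82455630) and had 11.8 ± 1.3 CPM in B6 and 52.1 ± 5.9 CPM in D2. Its level was 45.4 ± 6.1 CPM in BXD75 and 55.2 ± 4.8 CPM in BXD87.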

How the data were processed

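The members and gene lists were chosen with earlier results of these data known. The deposited tables hold counts, whole-number reads per peak that the authors did not normalise, and the association lists hold peak coordinates (other values) on mm10 and on a second genome. BWA 0.5.10, CASAVA 1.8, MACS 1.4.2 and build mm10 are named in the submitters' processing notes; the roles of the tools and their filters are not given in the sources used.

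Peaks within 1 kb of a GENCODE M21 basic TSS were promoter peaks. Hepatocyte counts of all 12 libraries were fitted together in R 4.3.3 with edgeR 4.0.16 (filterByExpr, TMM, robust quasi-likelihood F test), with Benjamini-Hochberg adjustment over 29137 peaks and a threshold of 0.05. In data simulated for B6 minus D2 on 29137 peaks, 86% of changes of log2 1 and 100% of log2 2 were recovered. The simulation gave every peak the same spread, so these shares do not hold for peaks that vary more between libraries. Alternatives were DESeq2 1.42.0, other scalings, filters and windows, and leaving out libraries. All 9 genes and the 5 promoter peaks most alike to the one with the largest founder difference are named. Input samples were not used. Depth was 8.95 to 25.2 mega-reads in peaks, and limits from 0 reads cover counting error only.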

Additional observations from a re-analysis of the deposited data

Results flagged for a closer look

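At the Cyp2c70 peak of germ cells (40178178 to 40179067, a REF peak inside the gene) 1 of 4 F1 libraries, at 2.90 CPM, stood apart from the others, the lowest of which had 2.01 CPM. Its levels were 1.04 to 3.03 CPM in B6 and 1.60 to 2.38 CPM in D2. Chance alone sets 1 library apart in about 1 of 20 groups of this size.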

How the results depend on the processing

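Between the founders, 3 to 4 of the 6 Cyp2c promoter peaks were called under every alternative that kept all libraries, and 2 to 4 when 1 library was left out. Cyp2c39 and Cyp2c23 were called in 13 of 13 settings, with log2 differences of -2.73 to -2.65 and 1.17 to 1.30. Cyp2c38 was called in 4 of 13 and Cyp2c55 in 12 of 13. For BXD75 minus BXD87 the count was 0 throughout. BXD75 minus B6 gave 4 throughout, BXD75 minus D2 gave 4 to 6 and BXD87 minus B6 gave 3 to 4. BXD87 minus D2 gave 4 to 6 with all libraries and 2 to 6 with 1 left out. The cause of these changes was not tested.

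Sign changes concerned differences that were not called. BXD87 minus B6 at Cyp2c38 was 0.026 as reported and -0.034 with DESeq2 and with RLE factors, and between -0.18 and 0.23 with 1 library left out. Scaling from LNK peaks alone gave 0.039 for BXD75 minus B6 at Cyp2c38 and 0.052 at Cyp2c55. With 1 library left out, these spanned -0.21 to 0.18 and -0.19 to 0.18, and BXD75 minus BXD87 spanned -0.24 to 0.15 at Cyp2c38, -0.23 to 0.18 at Cyp2c39 and -0.25 to 0.10 at Cyp2c23. With RLE factors 7699 peaks were higher and 8460 lower for BXD75 minus B6, and 7415 higher and 8152 lower for BXD87 minus B6, against a majority higher as reported and with scaling from LNK peaks. Dividing by the width on each genome and moving the Cyp2c39 window were chosen after seeing the data.

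Libraries with the same replicate number had a correlation over 0.1 in 5 of 18 pairs (-0.26 to 0.61), so number was not taken as a pairing. With the replicate block 4 Cyp2c peaks were called between the founders, 0 between the lines and 6 for BXD87 minus D2. Tests in cardiomyocytes, stem cells and germ cells gave no value, since no Cyp2c gene had a promoter peak there. With 3 libraries a strain, small differences could not be resolved.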
